A study of Mus musculus with 9 samples.

Results

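CXC chemokines are small secreted proteins that guide white blood cells through G-protein-coupled receptors. The genes described here are the 10 CXC chemokine genes Cxcl1, Cxcl2, Cxcl3, Cxcl5, Ppbp, Pf4, Cxcl9, Cxcl10, Cxcl12 and Cxcl16. They were selected by gene symbol from a table of 19769 genes, because several of them had differed strongly between the groups compared here, so their own levels are given as a description without a test. Of the 10 genes, 9 have values in the table. Cxcl9 has no row in it and its mRNA is not analysed here. The mRNA levels come from 4 RNA-seq libraries of primary MEFs (mouse embryonic fibroblasts) from Myc-Egfp+/+ mice, in which GFP is fused to MYC at the gene's own locus. All cells had received 20 µM MG-132, a proteasome inhibitor that lets the MYC-GFP signal build up, for 6 h. They were then sorted into low-MYC and high-MYC cells by GFP intensity and seeded overnight, and 2 libraries per group were sequenced. These 2 libraries are technical replicates, so each spread given here is that between libraries and not between embryos. A second table holds reads of accessible chromatin from MEFs (TACh-seq). The labels of 4 libraries point to that table, 2 from WT cells with non-target siRNA and 2 from Fubp1 knockout cells with Fubp2 siRNA (KOKD), each with 100 nM siRNA for 48 h, and no column says which library a read came from.

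CXC ligands whose N terminus carries a glutamate-leucine-arginine motif before the paired cysteines act mainly through Cxcr2 and draw neutrophils into tissue. In the mouse these include Cxcl1, Cxcl2, Cxcl3, Cxcl5 and Ppbp, and fibroblasts, macrophages and epithelial cells make several of them when interleukin-1, TNF or bacterial products activate the transcription factor NF-kB. Pf4, platelet factor 4, lies among them on the chromosome but lacks the motif and is best known from platelet granules. Cxcl9 and Cxcl10 are induced by interferons and attract T cells and NK cells through Cxcr3. Cxcl12 is made constitutively by stromal cells, binds Cxcr4 and Ackr3, and is central to the homing of blood-forming cells and to organ development. Cxcl16 is made as a membrane-anchored protein, binds Cxcr6 and is released by the proteases Adam10 and Adam17.

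Cxcl5 (chr5:90759360-90761624), Ppbp (chr5:90768518-90770063), Pf4 (chr5:90772435-90773383), Cxcl3 (chr5:90786103-90789600), Cxcl1 (chr5:90891241-90893115) and Cxcl2 (chr5:90903871-90905938) lie on the plus strand within 146.6 kb of chromosome 5 (mm10, gene ends from GENCODE). Cxcl9 (chr5:92321347-92328079) and Cxcl10 (chr5:92346638-92348889) lie further along the same chromosome on the minus strand. Cxcl12 (chr6:117168535-117181367) is on chromosome 6 and Cxcl16 (chr11:70453983-70459984) on chromosome 11, so neither belongs to the cluster.

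The promoters differ in which signal-response motifs they hold. The 250 bases before the RefSeq start are printed 5′ to 3′ on the gene's own strand (RefSeq, GRCm38.p6, the same assembly as mm10) for 6 genes that stand for the neutrophil-attracting, interferon-induced and constitutive members. Capitals mark matches on either strand to an NF-kB motif (GGG, any 3 bases, then TTCC), to the interferon response element ISRE (GAAA, any 2 bases, then GAAA) and to TATAAA.
Cxcl1, chr5:90890995-90891244, plus strand: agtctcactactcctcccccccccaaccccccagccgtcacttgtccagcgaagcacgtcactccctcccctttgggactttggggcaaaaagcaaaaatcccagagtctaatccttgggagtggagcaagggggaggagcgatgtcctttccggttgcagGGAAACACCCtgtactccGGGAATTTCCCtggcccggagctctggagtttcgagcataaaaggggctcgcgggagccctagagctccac
Cxcl2, chr5:90903649-90903898, plus strand: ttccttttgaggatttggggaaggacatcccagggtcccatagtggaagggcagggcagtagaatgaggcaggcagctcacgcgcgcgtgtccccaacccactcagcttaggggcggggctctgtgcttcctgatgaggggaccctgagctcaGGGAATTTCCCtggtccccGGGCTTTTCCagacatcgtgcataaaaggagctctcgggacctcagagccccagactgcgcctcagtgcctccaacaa
Cxcl3, chr5:90785851-90786100, plus strand: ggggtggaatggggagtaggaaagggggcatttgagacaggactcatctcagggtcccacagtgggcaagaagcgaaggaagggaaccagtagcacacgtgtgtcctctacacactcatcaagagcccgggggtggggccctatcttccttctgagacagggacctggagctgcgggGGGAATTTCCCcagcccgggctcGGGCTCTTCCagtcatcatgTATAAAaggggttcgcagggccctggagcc
Ppbp, chr5:90768268-90768517, plus strand: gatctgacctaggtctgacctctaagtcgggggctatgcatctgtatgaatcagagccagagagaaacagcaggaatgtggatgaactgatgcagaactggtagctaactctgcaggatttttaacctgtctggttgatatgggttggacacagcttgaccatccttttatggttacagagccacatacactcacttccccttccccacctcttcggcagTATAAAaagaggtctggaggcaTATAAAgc
Cxcl10, chr5:92348890-92349139, minus strand: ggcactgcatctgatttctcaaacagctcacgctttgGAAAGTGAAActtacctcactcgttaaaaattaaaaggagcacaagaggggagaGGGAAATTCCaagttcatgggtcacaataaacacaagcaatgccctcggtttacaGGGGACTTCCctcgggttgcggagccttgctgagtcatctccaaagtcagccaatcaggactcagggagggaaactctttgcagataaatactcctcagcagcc
Cxcl12, chr6:117168285-117168534, plus strand: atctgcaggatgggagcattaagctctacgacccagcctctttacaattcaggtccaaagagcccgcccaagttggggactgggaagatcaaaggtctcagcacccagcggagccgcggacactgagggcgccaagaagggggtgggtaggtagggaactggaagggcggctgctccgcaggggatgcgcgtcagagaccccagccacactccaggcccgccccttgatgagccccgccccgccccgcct

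RefSeq promoters of 300 bases (250 before the start and 50 after it) were matched for 8 of the 10 genes, and the same letters were counted in all 32851 promoters of the table. Cxcl5 and Cxcl16 were not matched. The NF-kB motif stands in 4 of the 8, Cxcl1, Cxcl2, Cxcl3 and Cxcl10, against 5.56% of all promoters. Each of the 4 holds at least 2 matches that do not overlap, which 52 of all promoters do (0.158%). These matches begin 89 and 71 bases before the start in Cxcl1, 97 and 78 bases before it in Cxcl2, 73 and 50 bases in Cxcl3 and 159 and 104 bases in Cxcl10. The letters GGGAATTTCC recur in Cxcl1, Cxcl2 and Cxcl3, where a match on the opposite strand overlaps by all but 1 base and the capitals therefore run for 11 bases. The ISRE occurs in Cxcl10 alone, 213 bases before the start, and in 3.44% of all promoters. TATAAA, the core of a TATA box, stands in Cxcl3 and Ppbp 30 bases before the start, a second time in Ppbp 8 bases before it, and in Cxcl9 195 bases before it, against 13.6% of all promoters. TTCNNNGAA (GAS, the interferon-gamma activation site) occurs in none of the 8 and in 8.3% of all promoters. TGANTCA (AP-1) occurs in Ppbp, Cxcl9 and Cxcl10 and in 7.81% of all promoters. CACGTG, the E-box to which MYC and MAX can bind, stands only in Cxcl3 among the 8, 155 bases before the start, and in 7.15% of all promoters. TTGCNNAA (C/EBP) was found only in Pf4 among the 8, and in 10.8% of all promoters. The promoter of Cxcl12 held none of these motifs. A match gives letters in this window only, and binding was not measured at any of these promoters.

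All levels are spike-in-normalized FPK, that is, fragments per kilobase of transcript divided by a score from synthetic RNAs added in proportion to cell count. They are thus relative to cell number and per transcript length. Over all genes of the table they added up to 46320 and 48290 for low-MYC cells and 102900 and 109100 for high-MYC cells. Changes are log2 ratios of high-MYC over low-MYC with 0.1 added to each value, with the standard error of limma. The median over the 11870 tested genes, those averaging 0.1 or more over the libraries, was 1.03, a 2.04-fold higher level in high-MYC cells, and 5% to 95% of these genes lay between 0.59 and 1.35. A second scale sets every library to the same median over these genes, and then gives a member's change relative to the typical gene. In bulk RNA, more cells of one type and more RNA per cell cannot be told apart. The steps between low values put the depth of the 4 libraries at 0.925 to 1.04 times that of low-MYC replicate 1, so the libraries were about equally deep, and let the reads behind a low value be estimated.

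Among the neutrophil-attracting members, Cxcl5, Ppbp and Cxcl1 were the abundant ones and all differed far more than the typical gene. Cxcl5, also called LIX, which binds Cxcr2, measured 2.38 and 1.999 in the low-MYC libraries and 44.5 and 44.0 in the high-MYC libraries. The high-MYC mean was 20.2 times the low-MYC mean, and Cxcl5 went from rank 2260 to rank 315 among all genes of the table. Its log2 change was 4.28 ± 0.08 (SE, 2 libraries per group), and 3.13 ± 0.11 with libraries set to the same median. Of the 11870 genes, 2 changed at least that much on the first scale, Cxcl5 itself included.

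Ppbp, the precursor from which proteases cut the neutrophil-attracting peptide NAP-2, was the most abundant member of the cluster in low-MYC cells. It measured 5.02 and 5.04 in the low-MYC libraries and 30.3 and 33.3 in the high-MYC libraries, 6.33 times the low-MYC mean. Its log2 change was 2.64 ± 0.06, and 1.47 ± 0.03 relative to the median gene. Cxcl1 (KC), the ligand best known from activated mouse fibroblasts, measured 0.759 and 0.768 in the low-MYC libraries against 7.31 and 6.92 in the high-MYC libraries. That is a ratio of 9.32 and a log2 change of 3.06 ± 0.05, or 1.96 ± 0.06 relative to the median gene. The low and high libraries did not overlap for any of these 3 genes, and the 2 libraries of a group were much closer to each other than to the other group. Lack of overlap alone was common, and held for all 12 fibroblast markers and for 3 of 5 endothelial markers given below.

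Cxcl2 (MIP-2) and Cxcl3, the close relatives of Cxcl1 that are best known from activated macrophages, were scarce. Cxcl2 measured 0.0463 and 0.0739 in the low-MYC libraries and 0.222 and 0.240 in the high-MYC libraries. These values stand for an estimated 12 and 19 reads in the low-MYC and 25 and 24 in the high-MYC libraries, and the ratio of 3.77 from these reads has a 95% interval of 2.35 to 6.11 that covers counting error only. The log2 change of Cxcl2, 1.05 ± 0.10, lay near the median of all genes at percentile 55, and the added 0.1 weighs on a value so low. Cxcl3 measured 0.0187 and 0.0175 in the low-MYC libraries and 0.131 and 0.186 in the high-MYC libraries, from about 4, 4, 14 and 17 reads. Its ratio of 9.24 from these reads has an interval of 4.15 to 23.3, and its mean over the 4 libraries was under 0.1, so it was not among the genes fitted. Cxcl1, Cxcl2 and Cxcl3, which share a promoter with paired NF-kB motifs, thus differed widely in level: in high-MYC cells the mean of Cxcl1 was 7.11, that of Cxcl2 0.231.

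Pf4 stood out by its near absence from low-MYC cells. It was listed at 0 and 0.0046 in the low-MYC libraries, the latter about 1 read, and at 0.987 and 0.908 in the high-MYC libraries, about 59 and 48 reads. The ratio from these reads was 255, with a counting interval of 44.8 to 10170. Its log2 change of 3.36 ± 0.07 depends on the 0.1 added to each value. Ppbp, its neighbour on the chromosome and in the platelet granule, was well above Pf4 in every library.

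**Figure D1:**
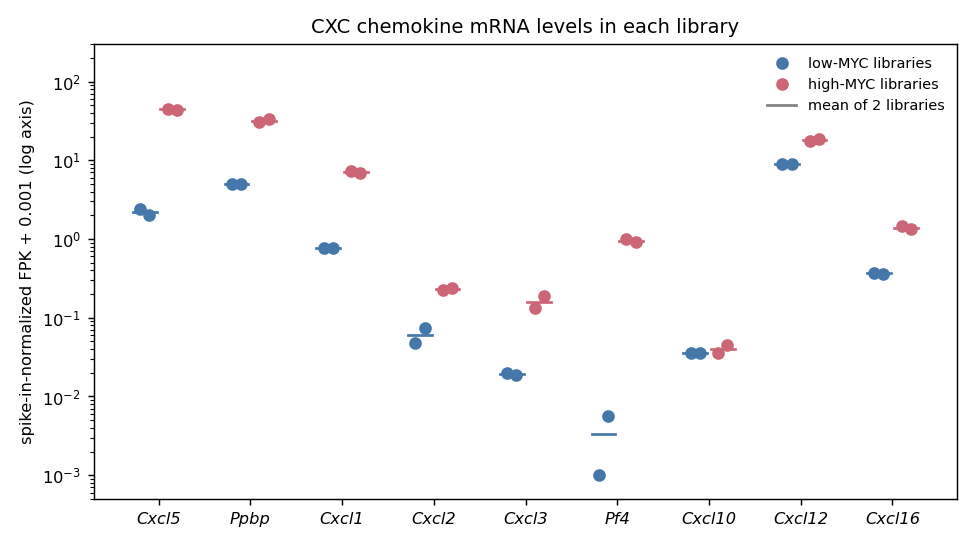
Level of each CXC member in the 4 libraries, as spike-in-normalized FPK with 0.001 added so that a 0 can be drawn on the log axis. Points are libraries (blue low-MYC, red high-MYC) and short lines are the means of 2 libraries. The groups are apart for 8 of the 9 genes and overlap for Cxcl10. Separation was common: all 24 interferon genes and all 12 fibroblast markers with values were apart, and 5 of 7 CXC receptors. Its share over all genes was not counted. Cxcl5 lies below Ppbp and Cxcl12 in low-MYC and above both in high-MYC cells.

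Of the interferon-induced members only Cxcl10 has values, and it was near the limit of detection. Cxcl10 measured 0.0348 and 0.0349 in the low-MYC libraries and 0.0347 and 0.0441 in the high-MYC libraries, and the groups overlapped. With an estimated 9, 9, 4 and 4 reads, its ratio was 1.06 with a counting interval of 0.399 to 2.56, so the typical 2.04-fold difference of other genes lies within what this depth allows. Its mean was under 0.1 and it was not among the genes fitted. Cxcl12, the constitutive member, was the most abundant of the 9 in low-MYC cells at 8.94 and 9.02, and measured 17.5 and 18.8 in high-MYC cells. Its ratio was 2.02 and its log2 change 1.01 ± 0.05, at percentile 46 of all genes. With libraries set to the same median the sign turned and the value was -0.16 ± 0.03, and its rank among all genes went from 619 to 707. Cxcl16, the membrane-anchored member, measured 0.374 and 0.355 in the low-MYC libraries and 1.45 and 1.33 in the high-MYC libraries, a ratio of 3.81. Its log2 change of 1.68 ± 0.06, or 0.66 ± 0.08 relative to the median gene, was between those of Cxcl12 and Ppbp.

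Of the 9 genes, 7 had a mean of at least 0.1, and all 7 exceeded low-MYC cells at least 2-fold with an adjusted p under 0.01 by limma, a mark that 55.1% of the 11870 genes reached. With libraries set to the same median, Cxcl1, Cxcl5, Ppbp and Pf4 reached it, as did 0.573% of all genes (68 genes). The median log2 change of the 7 was 2.64, against 1.03 over all genes, and 1.47 against -0.004 with libraries set to the same median. The genes were chosen for this difference, so these counts describe them and test nothing. Pf4 and Cxcl2 reached the minimum mean only through their high-MYC libraries. Cxcl12 and Cxcl2 lie near the 2-fold limit. Leaving out low-MYC replicate 1 put Cxcl2 at 0.93 and leaving out high-MYC replicate 2 put Cxcl12 at 0.96, so that 6 of 7 remained past it each time.

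**Figure D2:**
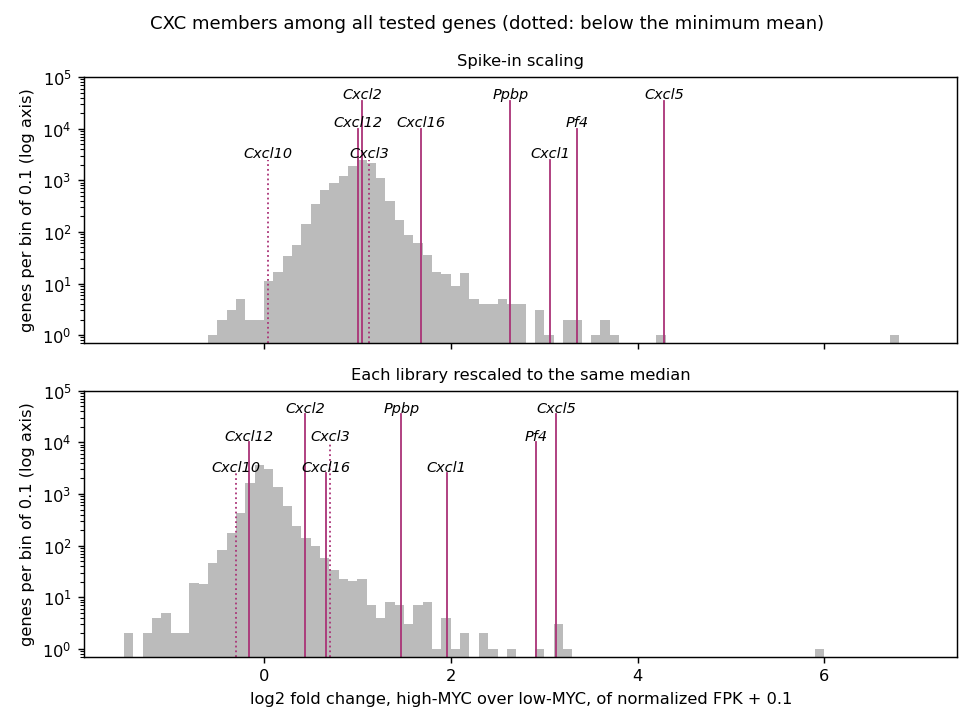
Number of genes per log2 fold change (bins of 0.1, log axis) for all 11870 tested genes, with the CXC members as vertical lines whose heights only separate the labels. The upper panel uses the spike-in scaling and the lower panel sets each library to the same median. Cxcl5, Pf4, Cxcl1 and Ppbp lie in the right tail of both panels, and Cxcl12 lies within the bulk of genes in both.

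The make-up of the summed mRNA of these 9 genes therefore differed between the groups. Cxcl14, a CXC ligand given below, is not part of this sum. The 9 genes summed to 17.6 and 17.3 in the low-MYC libraries and to 102.5 and 105.8 in the high-MYC libraries. The 5 neutrophil-attracting genes made up 46.8% and 45.6% of this sum in low-MYC cells and 80.5% and 80.0% in high-MYC cells. The share of Cxcl12 was 50.9% and 52.1% in low-MYC cells and 17.1% and 17.8% in high-MYC cells. Summed neutrophil-attracting mRNA was 0.919 and 0.876 times that of Cxcl12 in the low-MYC libraries and 4.71 and 4.49 times in the high-MYC libraries. These ratios are taken within a library and do not depend on its scaling. Within the sum of the 9 genes, the share of Ppbp was close to the same in every library, 28.6% to 31.5%. That of Cxcl5 was 13.5% and 11.5% in low-MYC cells and 43.4% and 41.6% in high-MYC cells.

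Among the other CXC ligands, only Cxcl14 of 5 has values. Cxcl14, a ligand made by epithelium and stroma that does not use Cxcr2, measured 1.84 and 1.75 in low-MYC and 10.6 and 11.0 in high-MYC cells. It rose by a log2 change of 2.53 (adjusted p = 1.04e-05 by limma) and stayed past the threshold with libraries set to the same median, at 1.38. Cxcl14 had been listed by the study among its largest changes on these same libraries, so it is not independent of them.

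Of 10 CXC receptors, 7 have values and 3 reached a mean of 0.1. All 3 rose with the spike-in scaling, against 55.1% of all genes, and none passed with libraries set to the same median. Cxcr4, the signalling receptor of Cxcl12, measured 0.236 and 0.211 in low-MYC and 0.498 and 0.634 in high-MYC cells, a log2 change of 1.04. Ackr3, which binds and clears Cxcl12, changed by 1.12, and Cxcr6, the receptor of Cxcl16, by 1.34. Cxcr2, the receptor of the neutrophil-attracting ligands, stayed between 0.00304 and 0.00672 in the 4 libraries with overlapping groups.

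The IL-1, TNF and NF-kB list holds 22 genes, of which 20 reached a mean of 0.1. With the spike-in scaling 11 of the 20 rose at least 2-fold, none fell, and this is the share of all genes (55.1%). Their median log2 change of 1.20 was near the 1.03 of all genes. With libraries set to the same median, 1 of the 20 rose at least 2-fold, Il6, against 0.573% of all genes. A further 3 were higher by less at an adjusted p under 0.01, a mark whose share over all genes was not counted. Il6, a cytokine that fibroblasts secrete together with Cxcl1, measured 0.407 and 0.380 in low-MYC and 2.20 and 2.32 in high-MYC cells, a log2 change of 2.26, or 1.22 relative to the median gene (adjusted p = 0.00261 by limma). Relative to the median gene, Cebpd, a C/EBP factor of the acute response, changed by 0.95, Il1a by 0.94 and Nfkbiz, a nuclear cofactor of NF-kB, by 0.76. Il1a had a low-MYC mean of 0.0399 and reached the minimum mean only through its high-MYC libraries, which favours a higher call. Tnfaip3, which restrains NF-kB signalling, was lower on that scale, at -0.52 (adjusted p = 0.00487 by limma), though it was higher by 0.62 with the spike-in scaling. The subunits themselves lay at the typical change: Rela at 1.15 and Nfkb1 at 0.98, and at -0.0017 and 0.022 relative to the median gene. Il1b has no row, and Tnf measured 0 and 0.00166 in low-MYC and 0.0260 and 0.0126 in high-MYC cells.

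Of 27 genes of interferon signalling and response, 24 have values and 18 reached a mean of 0.1. With the spike-in scaling 14 of the 18 rose at least 2-fold, against 55.1% of all genes, with a median of 1.13 against 1.03, and with libraries set to the same median none passed, with a median of 0.18. Irf1, a transcription factor of the interferon response, changed by 1.39 and Isg15, an interferon-induced ubiquitin-like protein, by 1.36. No interferon gene of the list, Ifnb1 or Ifng, has a row.

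CXC mRNAs are short-lived, and a list of 7 regulators of mRNA stability was followed for that reason. All 7 have values, and 5 rose at least 2-fold with the spike-in scaling, against 55.1% of all genes, and none with libraries set to the same median, against 0.573%. Zc3h12a (regnase-1), a nuclease that cuts inflammatory mRNAs, measured 0.406 and 0.386 in low-MYC and 1.525 and 1.496 in high-MYC cells and changed by 1.70, or 0.67 relative to the median gene (adjusted p = 0.0103 by limma). Zfp36 (tristetraprolin), which promotes the decay of AU-rich mRNAs, changed by 1.09 and Khsrp, the FUBP2 of this study and also a decay factor, by 1.14. Of 8 proteases that process CXC ligands, 5 reached the minimum mean and 4 rose at least 2-fold on the first scale and none on the second, with the same shares of all genes. Adam10 and Adam17, which shed Cxcl16, changed by 1.11 and 1.12. Mmp12, a protease best known from macrophages, was under the minimum at 0.00225 and 0.00261 in low-MYC cells and 0.139 and 0.133 in high-MYC cells.

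**Figure D3:**
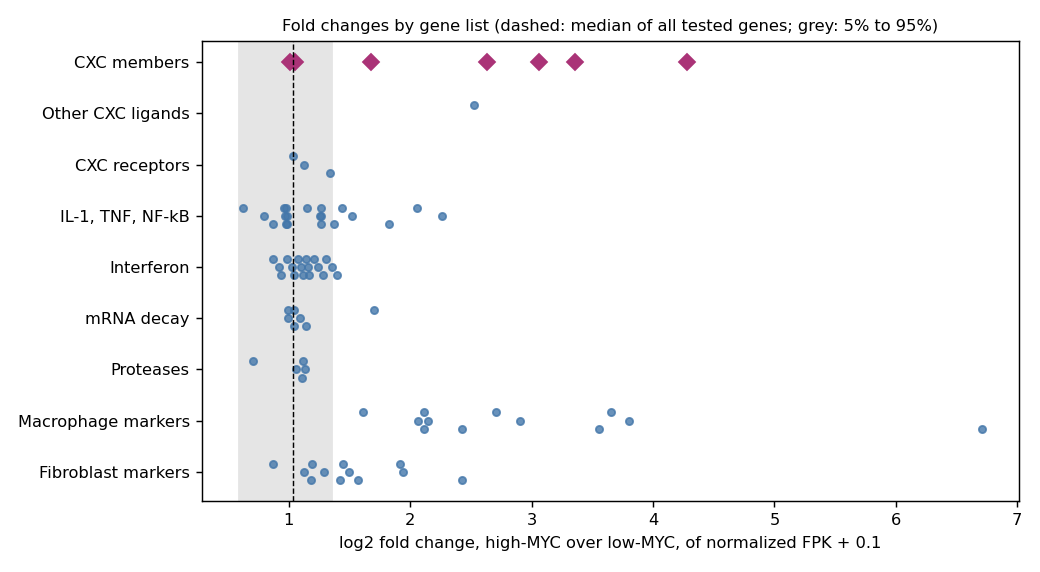
Log2 fold change, high-MYC over low-MYC with the spike-in scaling, of each gene with a mean of at least 0.1, by gene list. The dashed line is the median of all tested genes (1.03) and the grey band spans 5% to 95% of them. Receptors, decay factors and proteases lie in the band with the exception of Zc3h12a, while 5 CXC members and all 12 macrophage markers lie to the right of the band. Cxcl14 and some genes of the NF-kB, interferon and fibroblast lists lie to the right of it too.

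Summed markers of each other cell type with values were higher in high-MYC cells, though not every single marker was, and they are given beside these values. All 18 macrophage markers were higher in both high-MYC libraries than in both low-MYC libraries, and their sum was 0.955 and 1.31 in the low-MYC and 30.7 and 32.1 in the high-MYC libraries. Such separation was not particular to them. It also held for all 24 interferon genes and all 12 fibroblast markers with values, and for 3 of 5 endothelial markers. In low-MYC cells 14 of the 18 had a mean under 0.01 and 3 were at 0 in 1 library. Lyz2, a lysozyme of myeloid cells, measured 0.0305 and 0.142 in low-MYC and 18.0 and 18.9 in high-MYC cells. Of the 18, 12 reached a mean of 0.1, and 10 of these had a low-MYC mean under 0.1 and entered only through the high-MYC libraries, which favours a higher call. All 12 were called at least 2-fold higher (55.1% of all genes), and 11 with libraries set to the same median (0.573% of all genes), so these counts are a description. Of 9 neutrophil markers, 3 have values, and their sum went from 0.0618 and 0.0981 to 0.568 and 0.570, nearly all of it S100a8. Of 9 megakaryocyte and platelet markers, 4 have values with sums of 0.244 and 0.271 in low-MYC and 0.713 and 0.680 in high-MYC cells. Gp1bb, the only one of them with a mean of 0.1, changed by 1.09. None of 6 lymphocyte markers has a row. The 5 endothelial markers summed to 0.173 and 0.176 in low-MYC and 0.282 and 0.328 in high-MYC cells. Kdr, the only one of them with a mean of 0.1, changed by 0.51, or by -0.30 relative to the median gene. The 12 fibroblast markers summed to between 402 and 409 in low-MYC and 980 and 1010 in high-MYC cells, so the fibroblast label holds in all 4 libraries. Of these 12, 11 were called at least 2-fold higher (55.1% of all genes). With libraries set to the same median 1 was, Lum (0.573% of all genes). Their median log2 change was 1.44, or 0.26 relative to the median gene, so they too lay above the typical gene.

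The part of such cells in the levels of the chemokines was not tested. In the low-MYC libraries Ppbp stood at 5.02 and 5.04, Cxcl5 at 2.38 and 1.999, Cxcl1 at 0.759 and 0.768 and Pf4 at 0 and 0.0046. In the same libraries the macrophage markers ranged from Adgre1 at 0 and 0.000385 to Cd14 at 0.322 and 0.431 and Cd68 at 0.549 and 0.661. Genes near Cxcl5 were sought by Euclidean distance over the 4 libraries, on centred log2 values with 0.1 added. The 5 nearest were Mpeg1 (0.574), Angptl7 (0.601), C1qc (0.651), C1qa (0.767) and Pf4 (0.954). Except for Angptl7, all were under 0.1 in both low-MYC libraries and reached the minimum mean only through their high-MYC libraries. The added 0.1 therefore holds down their change and weighs on how near they come to Cxcl5. Without it, the ratio of means was 20.2 for Cxcl5, 147 for Mpeg1, 229 for C1qc, 724 for C1qa and 412 for Pf4. Mpeg1, C1qc and C1qa are also on the macrophage list. The genes nearest to Cxcl12 were Sptlc1, Irak2, Cdc5l, Tbc1d15 and Tada1 at distances of 0.0014 to 0.0101. With 4 libraries in 2 groups, this likeness is mostly that of the group difference.

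Accessible chromatin was found at the start of 3 of the 10 genes. The table lists 4881417 reads, which form 26043 regions when reads closer than 600 bp are joined. No region holds fewer than 4 reads, so lone reads are absent from the table. How its reads were selected is not known, so no upper limit can be given for a gene without reads. Within 1 kb on each side of the annotated start, Cxcl1 had 105 reads (95% Poisson interval 85.9 to 127, counting error only), Cxcl5 86 (68.8 to 106) and Cxcl12 82 (65.2 to 102). The intervals of these 3 overlap in this window, while 2 kb on each side held 105 reads at Cxcl1, 106 at Cxcl5 and 184 at Cxcl12. The other 7, Cxcl2, Cxcl3, Ppbp, Pf4, Cxcl9, Cxcl10 and Cxcl16, had 0. Of all 21755 protein-coding genes 48.6% had at least 1 read in this window, and among those that did the median was 151 reads with quartiles of 104 and 224, so Cxcl5 and Cxcl12 lie below the lower quartile and Cxcl1 just above it.

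**Figure D4:**
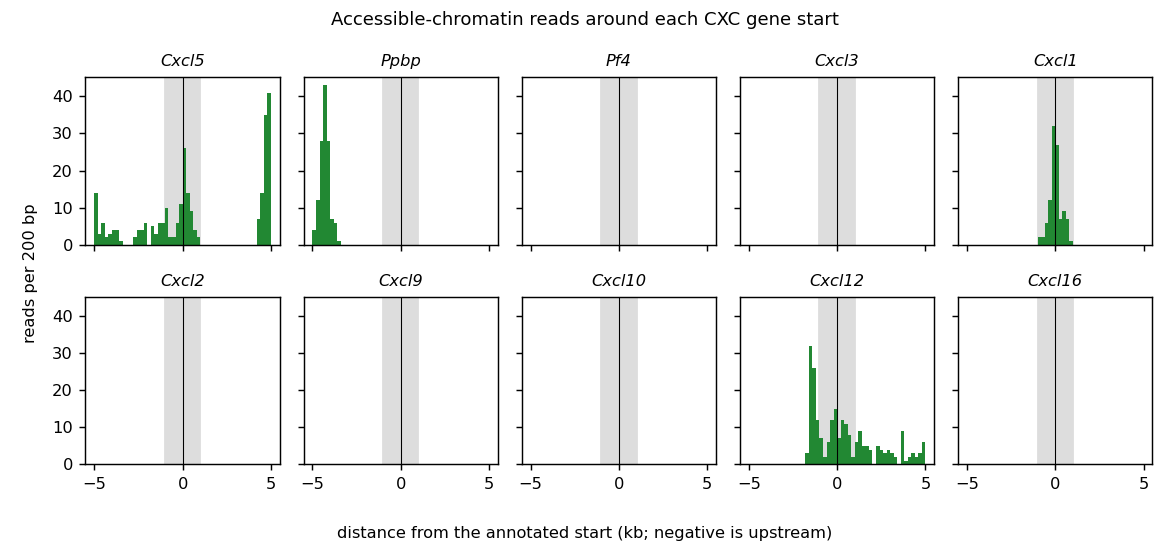
Reads of the accessible-chromatin table per 200 bp from 5 kb upstream to 5 kb downstream of the annotated start of each CXC gene, with 1 kb on each side shaded. Reads reach the shaded window at Cxcl5, Cxcl1 and Cxcl12, those near Ppbp lie upstream of it, and the 6 other panels are empty.

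Level and accessibility did not go together for every gene, but they were measured in different cells. Levels are means over sorted low-MYC and high-MYC cells given MG-132, while the reads come from MEFs given siRNA. Of the 10224 protein-coding genes with a mean level of at least 0.1, 84.8% had reads at the start. Ppbp had none, although 389 of the 431 genes with a mean level at least as high (90.3%) had some. Cxcl16 had none, against 89.9% of 5483 genes with a level at least as high. The region nearest to the start of Ppbp lies 3522 bp upstream, between Cxcl5 and Ppbp, with 129 reads over 1434 bp, and the same region is the nearest to Pf4 (7439 bp) and to Cxcl3 (21107 bp). The region nearest to Cxcl2 is that over the start of Cxcl1, 11823 bp upstream. For Cxcl16 the nearest region lies 6757 bp downstream of the start, just past the end of the gene. Cxcl9 and Cxcl10 were 17694 bp and 19052 bp from the nearest region. Cxcl12 lay in a long region of 9099 bp with 303 reads. These reads were deposited under a name that mentions WT, but the labels of WT and KOKD libraries alike point to them. No read names its library, so the reads were not assigned to WT or KOKD cells. None of the labels of the TACh-seq libraries names low-MYC or high-MYC cells.

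From 30 kb before Cxcl5 to 30 kb past the end of Cxcl2 the table holds 9 regions. Of these, 1 covers the start of Cxcl5, 1 that of Cxcl1 and 1 that of Mthfd2l, the gene beyond Cxcl2, while the other 6 overlap no protein-coding gene. The region between Cxcl5 and Ppbp was the densest at 90.0 reads per kb, against 34.2 over Cxcl5 and 61.4 over Cxcl1. The region with most reads, 334 over 7733 bp, begins 16.4 kb and ends 8.66 kb before the start of Cxcl1, in the gap between Cxcl3 and Cxcl1.

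**Figure D5:**
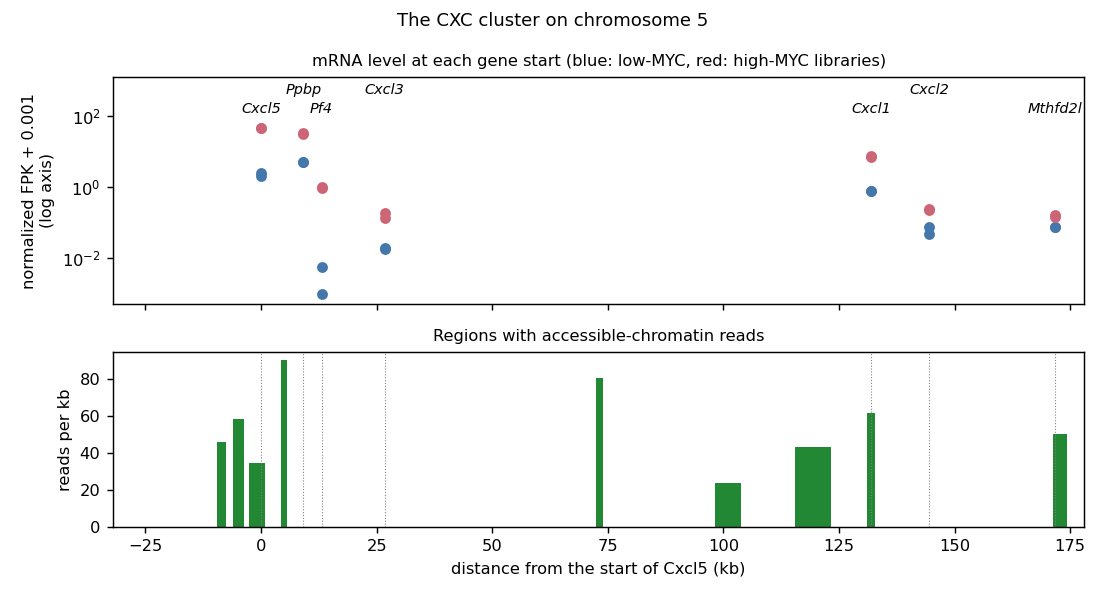
The cluster by distance from the start of Cxcl5. The upper panel gives the level of each gene in the 4 libraries (normalized FPK + 0.001, log axis) at its start, and the lower panel gives reads per kb in each region of accessible chromatin, with dotted lines at the gene starts. The genes with high levels lie at both ends of the cluster, and regions cover the starts of Cxcl5, Cxcl1 and Mthfd2l.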

How the data were processed

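The deposited tables of 4 RNA-seq libraries (sorted MEFs) and of TACh-seq (MEFs) were used. The CXC genes and the gene lists were chosen with earlier results of these data known. For RNA-seq, the authors removed 3′ bases of poor quality, mapped the reads with TopHat to mouse transcripts (mm10), estimated abundance with the Partek E/M method, and divided by transcript length and by a spike-in score (geometric mean of ERCC transcripts added per cell number) to give the deposited signal. Reads shared by near-identical genes are split by this step. Per the methods, the authors aligned TACh-seq reads with Bowtie2 (mm10), and the deposited table gives a position and a mapping score per read. How its reads were selected is not given in the sources used here.

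Here, log2(signal + 0.1) was compared with limma 3.58.1 (lmFit, eBayes with trend) under R 4.3.3. Genes averaging 0.1 or more entered, with Benjamini-Hochberg adjustment. Calls need an adjusted p under 0.01 and a 2-fold difference. The procedure was tested on simulated data. The p-values measure the spread between technical replicates only. The value of 1 read was estimated from the grid of low values of genes with a single transcript. Only 44.4% to 46.2% of values of 1 to 10 reads lay within 0.1 of a whole read, so reads are approximate and no count test was run. Library sizes in reads are otherwise unknown here. Reads of accessible chromatin closer than 600 bp were joined into regions. Chromosome positions are 1-based, with starts from GENCODE and promoters from RefSeq (GRCm38.p6). Genes named are the CXC members, all genes of the lists, and the 5 nearest to Cxcl5 and Cxcl12. FUBP1 ChIP-seq peaks lie on chromosome 15, which holds no member, and were not used. Alternatives covered the pseudocount, minimum mean, scaling, trend, replicate block, each library, and the window, reads and start used for TACh-seq. The numbers of the replicates pair nothing in the methods. Other steps ran in Python 3.11.15 (scipy 1.17.1, numpy 2.4.6, pandas 2.3.3), and plots in matplotlib 3.10.9.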

Additional observations from a re-analysis of the deposited data

How the results depend on the processing

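All 7 CXC genes with a mean of at least 0.1 stayed higher in high-MYC cells wherever they were fitted (5 of them at a minimum mean of 0.5), except that with each library set to the same median Cxcl12 turned to -0.16. The number of CXC genes past the threshold was then 4 (of all genes, 68 instead of 6540). With a pseudocount of 1 it was 3 (all genes 1448), and with 0.01 it was 7 (all genes 10076), since the added value shrinks the change of low genes: Pf4 ranged from 0.96 to 6.31 and Cxcl2 from 0.22 to 1.81. Leaving out 1 library gave 6 to 7 CXC genes and 5683 to 7374 genes in all. A lone library is then assumed to vary like the other group. Replicates with the same number in both groups deviated together with a correlation of 0.081, so no pairing is taken from the numbers, and the replicate block gave 7 and 6556. Set to the same median, the sign also turned for these genes among the others recomputed under each alternative, which are not all genes named: Tnfaip3 (-0.52), Khsrp (-0.019), Zfp36 (-0.065), Mmp14 (-0.12), Ereg (-0.26), Areg (-0.31), Mthfd2l (-0.069) and Rassf6 (-0.041). For Cxcl3 and Cxcl10, under the minimum mean, an alternative chosen after seeing the data (no minimum, same median) gave 0.71 and -0.30. The number of genes with reads at the start, 3, was the same for windows of 500 bp and 2 kb, for each position counted once, for mapping scores of at least 30 and for alternative starts, but the reads of Cxcl12 went from 82 to 184 with 2 kb. Values under about 20 reads are limited by depth.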

Other observations

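Genes beside the chromosome 5 cluster had changes near or below the median of all genes. Within 500 kb on either side, 6 other genes had a mean of at least 0.1, a set looked at after its values were seen: Ankrd17, the lncRNA Gm9958 and Rassf6 before Cxcl5, and Mthfd2l, Ereg and Areg past Cxcl2. Their log2 changes lay between 0.42 (Areg) and 1.10 (Ankrd17). With libraries set to the same median all 6 lay between -0.31 and 0.03, and none had an adjusted p under 0.01 by limma. Ereg and Areg, growth factors of the EGF family, measured 3.73 and 4.10 and 0.119 and 0.136 in low-MYC cells, against 6.91 and 7.83 and 0.180 and 0.233 in high-MYC cells. Mthfd2l, a mitochondrial folate enzyme whose start is the next covered by accessible chromatin, measured 0.0724 and 0.0709 in low-MYC and 0.141 and 0.156 in high-MYC cells. The difference between the cluster and its neighbours was not tested, since the CXC genes were chosen for theirs.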
